A study of Mus musculus and Rattus norvegicus with 28 samples.

Results

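The regions described here became accessible between P1 and P3 by the presence of peaks and were still accessible at P7. They were selected on the ATAC-seq peak lists of mouse left-ventricular cardiomyocytes, 2 libraries each at embryonic day 18.5 (E18.5) and postnatal days 1, 3 and 7 (P1, P3 and P7). Peaks of the 8 lists that overlapped by at least 1 bp were merged into regions. A region was taken when both P3 libraries and both P7 libraries held a peak in it and none of the 4 E18.5 and P1 libraries did. This rule gave 7685 of the 113857 regions, and they are called P3–P7 regions below. For comparison, 63439 regions were held by at least 2 libraries, 8328 by both P3 libraries and no other library (P3-only regions), and 5437 by all 8 libraries.

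All mice were wild-type C57BL/6 animals of both sexes, without treatment, at E18.5 (late fetal), P1, P3 or P7 (neonatal). The time points differed in age only as far as the labels tell. The cells were released from left ventricles with trypsin and collagenase, and cells that attached quickly to plastic were discarded. The purity of each library rests on this preparation. The study stained isolated cells for cardiac troponin T and reported high purity, also at P7. RNA-seq of cells from the same 4 ages, again with 2 libraries each, gave the transcript levels of nearby genes.

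ATAC-seq finds accessible chromatin because the Tn5 transposase inserts where DNA is not packed in nucleosomes. Such regions are mostly promoters, where transcription starts, and enhancers, which lie farther away and hold binding sites for transcription factors. AP1 factors, which are pairs of FOS and JUN proteins, respond quickly to growth signals and stress. MEF2 and GATA factors act on the genes of the contractile apparatus, and TEAD factors carry the signal of the Hippo pathway. Around birth, heart muscle cells turn from dividing fetal cells to larger, oxidative postnatal cells.

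The sequence feature that stood out in the P3–P7 regions was the AP1 motif TGACTCA, read on both strands (TGAGTCA is the same site on the other strand). The stretches below show it in 6 of the regions named further on. The first 3 come from regions among the 10 of highest strength. The next comes from a promoter whose gene had a large rise of its transcript, and the last 2 from distal regions of Timp3 and Adamts1. Promoter regions of Rnf207 and Eno3, whose transcripts fell, also held an AP1 match and are not shown. Each stretch shown is 107 bases of the plus strand of GRCm38 (mm10), in lower case with the AP1 match in capitals. The name is that of the gene with the nearest start. Intron means an intron of any annotated transcript, which need not belong to the gene named.

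4931403G20Rik, chr12:69834365-69834471, intron: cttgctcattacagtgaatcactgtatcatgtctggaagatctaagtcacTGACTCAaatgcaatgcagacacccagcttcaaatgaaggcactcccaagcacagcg
P3h2, chr16:26211487-26211593, intergenic: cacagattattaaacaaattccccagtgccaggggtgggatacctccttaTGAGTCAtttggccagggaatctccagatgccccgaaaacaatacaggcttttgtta
Gm13498, chr2:50793677-50793783, intergenic: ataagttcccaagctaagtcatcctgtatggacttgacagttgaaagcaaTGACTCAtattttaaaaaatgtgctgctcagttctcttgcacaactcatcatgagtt
Ptprn, chr1:75263343-75263449, promoter: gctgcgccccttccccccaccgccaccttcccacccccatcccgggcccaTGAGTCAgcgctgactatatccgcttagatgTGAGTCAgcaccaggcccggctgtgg
Timp3, chr10:86264902-86265008, intron: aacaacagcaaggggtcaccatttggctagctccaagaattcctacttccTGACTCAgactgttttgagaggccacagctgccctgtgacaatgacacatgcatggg
Adamts1, chr16:85736642-85736748, intergenic: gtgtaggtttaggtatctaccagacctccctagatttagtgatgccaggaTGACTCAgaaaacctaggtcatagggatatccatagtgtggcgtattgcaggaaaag

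The lists that chose the regions differed in length, and the regions have to be read with that in mind. The E18.5 lists held 13149 and 14910 peaks, the P1 lists 29281 and 19753, the P3 lists 95257 and 52040, and the P7 lists 49113 and 35898. When only the 13149 peaks of highest score were taken from each list, 466 regions met the rule, and 142 of these (30.5%) overlapped a P3–P7 region. The absence of a peak at E18.5 or P1 does not by itself measure closed chromatin. The prefix of the peak names was shared by the replicate 1 lists of E18.5, P3 and P7, and no P1 list had it, so the rule could not be applied within it. E18.5 replicate 2 and both P1 lists shared another prefix. The labels do not say what the prefixes stand for. P1 replicate 1 and P7 replicate 2 set the number of regions most, with 12382 regions without the former and 17790 without the latter.

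The RNA libraries labelled cardiomyocyte also differed in the markers of heart cell types. The summed level of 16 cardiomyocyte genes lay between 31861 and 41401 FPKM at E18.5, 15429 and 24374 at P1, then 8344 and 10264 (P3) and 1156 and 2615 (P7). All 16, among them Tnnt2, Myh6 and Actc1, were still detected at P7, at lower levels. The sum of 12 fibroblast genes lay between 488 and 501 FPKM at E18.5, 1250 and 1455 at P1, then 1656 and 1680 (P3) and 3090 and 3834 (P7). Erythroid genes summed to 29048 and 35396 FPKM at E18.5 and to at most 41.8 FPKM in any later library. In such libraries, fewer cells of a type and less RNA per cell cannot be told apart. No gene of these marker lists was at 0 in all 8 libraries.

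In strength, the P3–P7 regions had lower fold enrichment at P7 than at P3. Strength is given as the fold enrichment at a peak's summit, the ratio of its signal to the local background in the authors' peak caller, and because it chose the regions it is described without a test. The median was 6.97 in P3 replicate 1 and 6.36 in P3 replicate 2. At P7 it was 4.62 in replicate 1 and 4.03 in replicate 2. The full range ran from 2.19 to 18.2 and 2.17 to 15.9 at P3, and from 2.03 to 12.0 and 2.16 to 8.18 at P7.

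**Figure D1:**
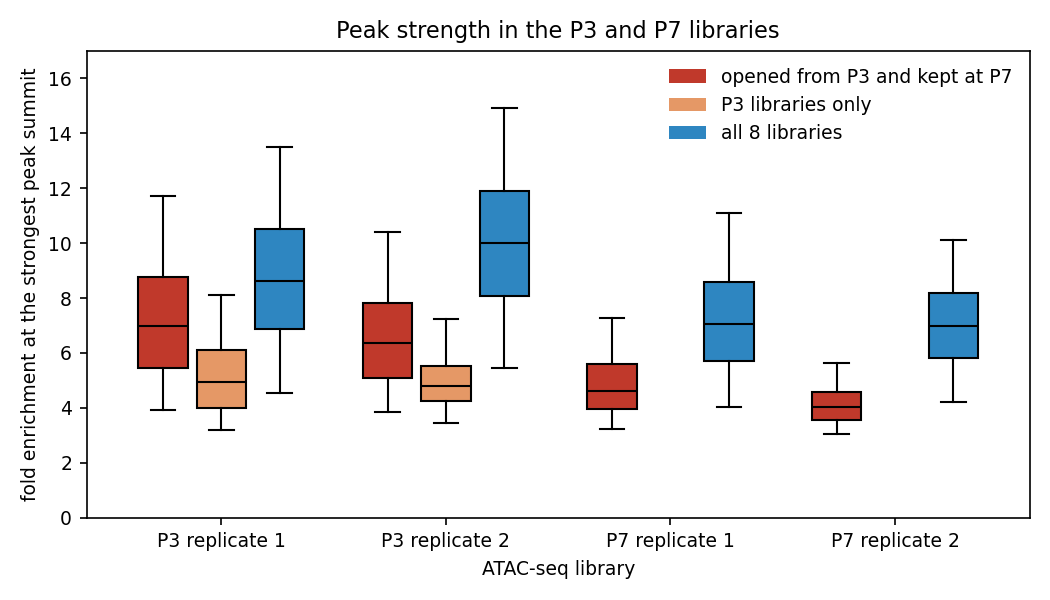
Fold enrichment at the strongest summit of each region in the 4 P3 and P7 ATAC-seq libraries, for P3–P7 regions (red), P3-only regions (orange) and regions of all 8 libraries (blue). Lines are medians, boxes the 25th to 75th percentile and whiskers the 5th to 95th; the red medians fall from 6.97 and 6.36 at P3 to 4.62 and 4.03 at P7 and lie below the blue ones.

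Within each list, the median P3–P7 region stood at the 75.8th percentile of P3 replicate 1 and the 53.8th of P3 replicate 2, and at the 51.9th and 37.9th of the P7 lists. A percentile depends on how many weaker peaks a list holds, and these lists held 95257, 52040, 49113 and 35898 peaks in the same order. P3 replicate 2 and P7 replicate 1, nearest in length, differed little in percentile. Regions of all 8 libraries stood between the 87.0th and 89.1th percentile in the same 4 lists. P3-only regions were weaker at P3 than P3–P7 regions, with medians of 4.93 and 4.80. Of the 7685 regions, 6215 (80.9%) had both P7 values below both P3 values, and the median ratio of the P7 mean to the P3 mean was 0.663. For regions of all 8 libraries the share was 72.0% and the ratio 0.765. The rank of a region was shared better between the P3 libraries (Spearman 0.668 across the regions) than between the P7 libraries (0.351). These correlations run across regions of the same cells, which are not independent replicates.

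At the border of the rule, 12306 regions held a peak in 3 of the 4 P3 and P7 libraries and in no earlier one. Of these, 10105 were missing only in P7 replicate 2, the shorter P7 list, and their medians were 6.16, 5.52 and 4.25 in the other libraries. Another 6176 regions held peaks in all 4 late libraries and in a single early library, which was P1 replicate 1 for 4697 of them. Those 4697 were stronger than the P3–P7 regions, with medians of 8.24, 7.72, 5.59 and 4.57. Few P3–P7 regions were the edge of an older one, since 488 (6.35%) had an E18.5 or P1 peak within 1 kb and the median distance to such a peak was 12041 bp.

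Of the 10 regions of highest strength, 6 were promoters and 4 lay away from any start. By the lowest of the 4 fold enrichments, the first was an intronic region at chr12:69833932-69834647, 13346 bp from a start of 4931403G20Rik, with values of 10.3 and 10 in the P3 libraries and 8.94 and 7.88 in the P7 libraries. The promoter of Zfp287, a zinc finger gene, followed at chr11:62731310-62732095 with 9.88, 10.3, 7.65 and 7.83. The promoter of Prkar2b, a regulatory subunit of protein kinase A, held 8.01, 7.52, 7.80 and 7.42 at chr12:32060452-32061764. Prkar2b was the only nearest gene of this group whose transcript was called higher in late libraries. It stood at 1.51 and 1.04 FPKM at E18.5, 50.7 and 10.9 at P1, then 55.0 and 66.3 (P3) and 31.4 and 25.5 (P7). All later libraries were above both E18.5 libraries, while the P1 and the P7 values overlapped. The log2 fold change of P3 and P7 against E18.5 and P1 was 2.5 (SE 0.39, limma adjusted p 0.00139). The intergenic region at chr16:26211279-26211971, 105841 bp from P3h2, reached 12.1 and 12.3 at P3 and held 8.60 and 7.21 at P7. Among these 10, the highest value in P3 replicate 1 was that of the intergenic region nearest to Gm13498, at chr2:50793337-50794032, with 14.2 and 10.7 at P3, 10.7 and 6.97 at P7, and 2 AP1 matches. Tnik, a kinase of the Wnt pathway, had a region 131 bp from its start (13.0, 8.07, 7.62 and 7.21). Its transcript was lower in every late than in every early library, with a log2 fold change of −0.97 (SE 0.23, limma adjusted p 0.0101) that stayed under the fold limit of 1. A region 14424 bp upstream of C530008M17Rik (chr5:76641604-76642572), in an intron of another gene, carried 10.8, 10.7, 7.22 and 7.54. The C530008M17Rik transcript had a log2 fold change of −1.0 (SE 0.2, limma adjusted p 0.00441), just inside the fold limit and not called. The other promoters of the group were those of Ccdc105, Frmd3 and Gm37101, whose transcripts were too low to be tested, as were those of 4931403G20Rik and Gm13498.

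In 23 regions (0.299%) both P7 values were above both P3 values, which held for 1.03% of regions of all 8 libraries. They were looked at after their values were seen. The largest ratio of P7 to P3 was 1.40, at an intronic region 4382 bp from 3110039I08Rik with 2.83 and 3.18 at P3 and 3.62 and 4.77 at P7. Promoters of Runx2, a transcription factor of bone cells (3.51 and 3.19, then 3.74 and 4.14), and of Ccnd1, the cell cycle regulator cyclin D1 (3.43 and 2.98, then 3.48 and 3.96), were among the 23. The promoter of Tead3, a Hippo pathway factor, went from 3.49 and 3.53 to 3.71 and 3.63.

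By position, 2623 of the 7682 regions on annotated chromosomes (34.1%, 95% Wilson interval 33.1 to 35.2%) were promoters, with a midpoint within 2.5 kb of a transcript start of the annotation in the files. The others were intronic (2562, 33.4%), intergenic (2284, 29.7%) or exonic (213, 2.77%). The median distance to a start was 6458 bp and the median width 577 bp. Beyond 20 kb lay 1770 regions (23.0%) and beyond 50 kb 532 (6.93%).

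P3-only regions were promoters in 20.7% (19.8 to 21.6%) and regions of all 8 libraries in 83.6% (82.6 to 84.5%), so the P3–P7 regions lay between these sets. Their share was below the 37.3% (36.9 to 37.6%) of all regions held by at least 2 libraries. Counted only from the starts of transcripts with an FPKM of at least 1, 17.4% of the P3–P7 regions were promoters. The intervals cover counting error only, and neighbouring regions are not independent.

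**Figure D2:**
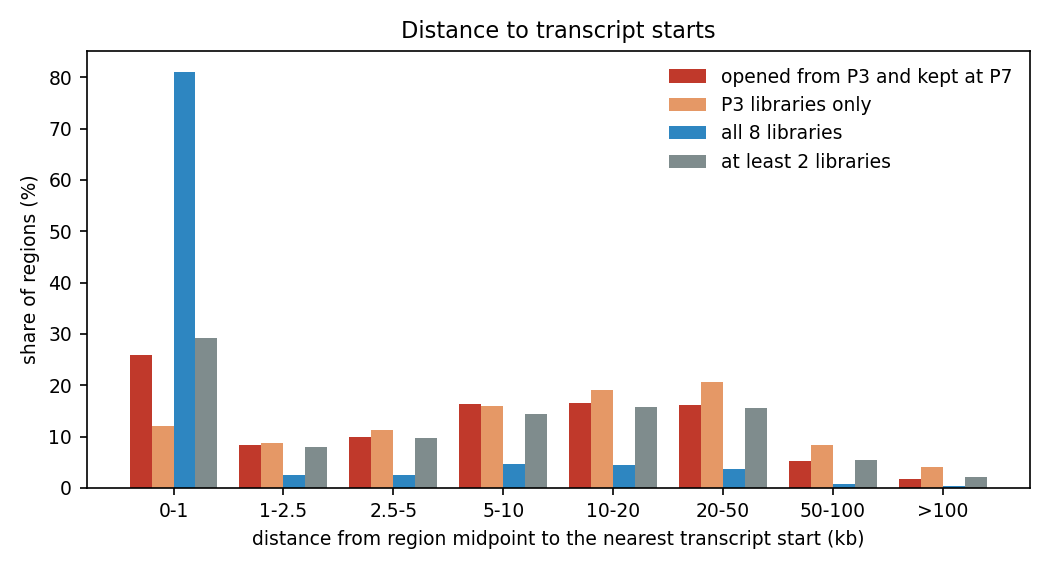
Share of regions (%) by the distance from their midpoint to the nearest transcript start (kb) for P3–P7 regions (red), P3-only regions (orange), regions of all 8 libraries (blue) and regions of at least 2 libraries (grey). Within 1 kb lie 25.8% of the P3–P7 regions, 12.0% of P3-only regions and 81.1% of regions of all 8 libraries.

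In sequence, AP1 matches were more frequent in the P3–P7 regions than in regions in general. TGACTCA was present in the 400 bp around the midpoint of 2293 of 7682 regions (29.8%, 28.8 to 30.9%), against 23.0% (22.7 to 23.3%) of regions of at least 2 libraries. Away from promoters the share was 36.9% (35.6 to 38.3%) against 29.1% (28.7 to 29.5%). At promoters it was 16.2% (14.8 to 17.7%) against 12.7% (12.3 to 13.1%). P3-only regions reached 25.9% and regions of all 8 libraries 7.75%. Away from promoters P3-only regions reached 27.7% and regions of all 8 libraries 24.4%, both below the P3–P7 regions. At promoters the shares were 18.8% and 4.47%. The P3–P7 regions were thus not above P3-only regions at promoters, where the intervals of these sets overlapped. A shuffled control with the letters GTACTAC was found in 1.35% of the P3–P7 regions and 1.22% of regions of at least 2 libraries.

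The matches lay in the middle of the regions. In the 50 bp on either side of the midpoint 6.20% and 6.16% of the P3–P7 regions held a match, and in the bins 450 to 500 bp away 0.651%. Measured from the mean summit of the 4 late libraries, the nearest match was a median of 45 bp away, and 54.7% of the matches within 200 bp lay within 50 bp. On either side of the midpoint, 6.03% and 5.75% of P3-only regions held a match within 50 bp. The same shares for regions of at least 2 libraries were 4.95% and 5.14%.

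**Figure D3:**
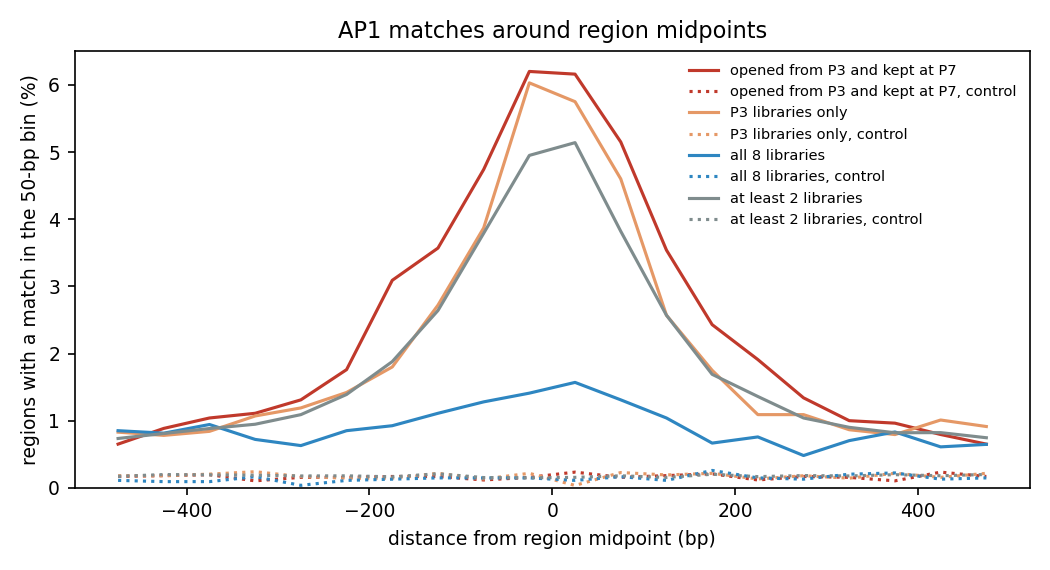
Share of regions (%) with an AP1 match (solid) or a match to the shuffled control (dotted) in bins of 50 bp against the distance from the region midpoint (bp), in the same 4 sets and colours. The red line peaks at 6.20% at the midpoint and falls to 0.651% at 500 bp, while the control lines stay flat.

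AP1 matches went with strength. Ranked by mean fold enrichment at P3 and split into 4 groups of equal size, the lowest group (2.18 to 5.42) held a match in 17.3% of regions, and the next groups in 25.5%, 32.0% and 44.5%. Promoters made up 53.8%, 34.3%, 27.9% and 20.6% of the same groups. Regions with a match had medians of 7.97 and 6.80 at P3 and 4.98 and 4.09 at P7, against 6.57, 6.11, 4.51 and 3.99 without. The ratio of P7 to P3 was 0.625 with a match and 0.681 without. How far position and AP1 each go with strength was not tested.

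Other motifs set the P3–P7 regions less apart from all regions of at least 2 libraries. The TEAD motif GGAATG was found in 29.4% against 28.2%, the GATA motif AGATAA in 15.9% against 16.0%, and the RUNX motif TGTGGTT in 8.33% against 8.02%. The ETS motif CCGGAAG, common in promoters, was found in 5.13% against 6.04%. TTGGCA, a partial site of NF1 factors, was found in 23.7% against 23.1%, and the E-box CAGCTG of basic helix-loop-helix factors in 28.3% against 27.8%. The CEBP motif TTGCGCAA was rare at 0.130% against 0.134%. The MEF2 consensus was found in 3.19% (2.82 to 3.61%) against 3.97% (3.82 to 4.13%), and its shuffled control in 1.93% against 2.22%. All were read on both strands, a match is not evidence of binding, and the AP1 letters overlap none of the others. The median GC content was 51.0%, against 47.8% in P3-only regions and 64.2% in regions of all 8 libraries.

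Transcripts of genes with a P3–P7 region at the promoter were called higher late in a larger share than all tested genes, and so were those of genes with a P3-only region there. In the limma comparison of P3 and P7 with E18.5 and P1, calls needed a Benjamini-Hochberg adjusted p below 0.05 and a change of more than 1 on the log2 scale in either direction. Of 13979 tested genes, 5.75% were called higher and 5.50% lower. Of the 1772 tested genes with a P3–P7 region at the promoter, 206 were called higher (11.6%) and 66 lower (3.72%). Of 1409 genes that were only nearest to a distal P3–P7 region, 122 were higher (8.66%) and 73 lower (5.18%). Of the 10798 genes with neither, 4.41% were higher and 5.83% lower.

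The median log2 fold change was 0.18 for promoter genes, 0.13 for distal genes and 0.09 for all tested genes. These shares are described without a test between the sets. The fibroblast and cardiomyocyte marker sums given above moved over the same libraries, and their part in these shares was not tested. Without the P7 libraries, 8.41% of the promoter genes were higher, beside 4.36% of all genes. Without the E18.5 libraries 3.44% were, beside 1.58%. Genes with a P3-only region and no P3–P7 region at the promoter (713 genes) were called higher in 8.13% and lower in 4.77%. Genes whose promoter held a region of all 8 libraries were called higher in 2.47% and lower in 4.38%. Where a gene had both kinds of region at its promoters (291 genes), 3.78% were higher. Where it had a P3–P7 region and no region of all 8 libraries there (1481 genes), 13.2% were.

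Of the 206 promoter genes called higher late, 148 (71.8%) were also called higher at P1 against E18.5, when the regions held no peak, as were 590 (73.4%) of all 804 higher genes. In the comparison of P1 with E18.5, 10.1% of all tested genes were called higher and 6.06% lower. Of the promoter genes 16.9% were higher and 4.06% lower, and of the distal genes 15.8% were higher and 5.32% lower. Genes with a P3-only region at the promoter gave 12.5% and 5.33%. Between P1 and P3, where the regions appeared, 2 genes in all were called (0.0143%), both higher, and 1577 genes had an unadjusted p under 0.05. From P3 to P7, where the regions weakened, 1.35% of all genes were called higher and 2.20% lower. The promoter genes gave 2.26% and 1.64%, and the distal genes 1.92% and 2.48%. The median FPKM of the promoter genes was 6.07 and 5.35 in the E18.5 libraries and lay between 7.86 and 8.51 in the 6 later ones. For all tested genes it went from 7.48 and 6.92 to between 7.99 and 8.61.

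**Figure D4:**
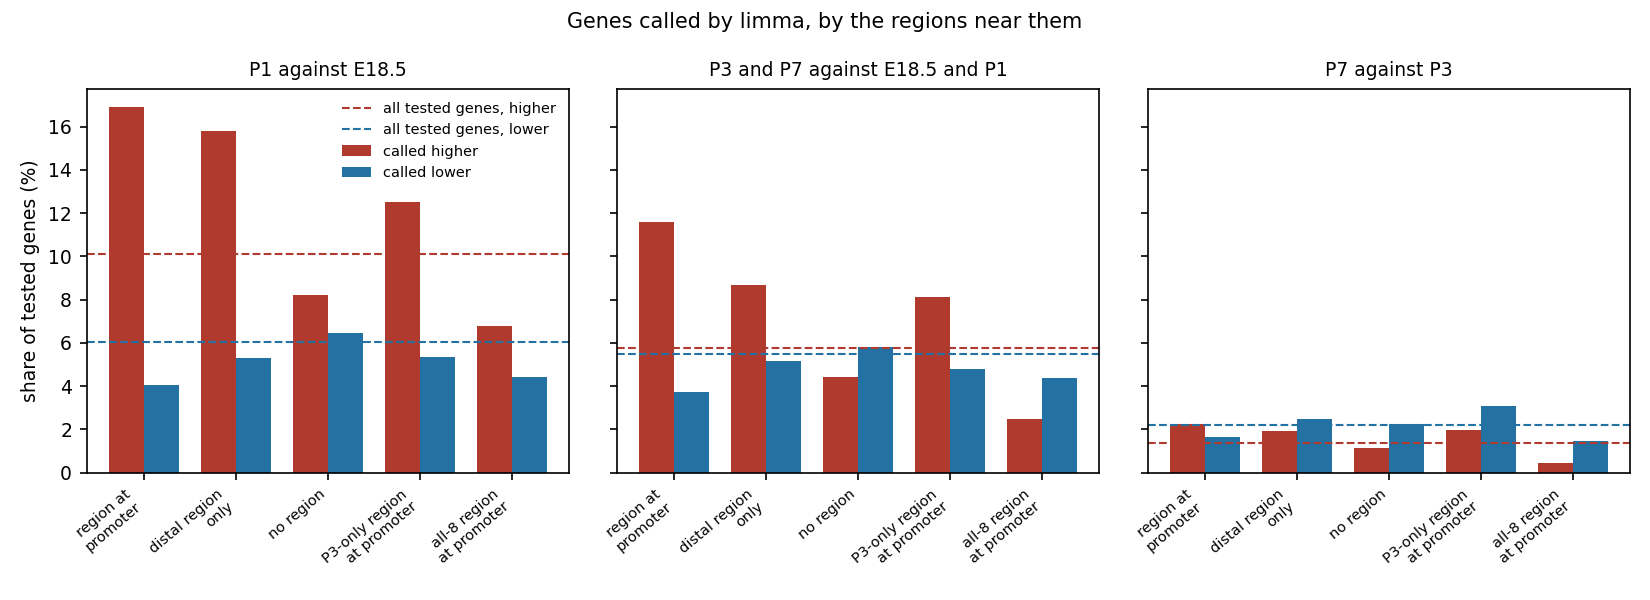
Share of tested genes (%) called higher (red) or lower (blue) by limma in 3 comparisons, for genes with a P3–P7 region at the promoter, with a distal one only, with neither, and with a P3-only region or a region of all 8 libraries at the promoter. Dashed lines give all tested genes; the genes with a P3–P7 region at the promoter stand at 16.9% higher for P1 against E18.5, over a line at 10.1%.

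By distance, genes were counted in every bin in which they had a region, so that genes of the farther bins could also have one at the promoter. Genes nearest to a region within 2.5 kb were called higher in 12.2%, at 2.5 to 20 kb in 9.88%, at 20 to 50 kb in 9.98%, and farther away in 11.2% (15 of 134 genes). Genes nearest to a single region were higher in 9.86% (233 of 2362), to 2 regions in 12.0% (56 of 468) and to 3 or 4 regions in 17.3% (28 of 162). Of the 13 genes nearest to 5 or more, limma called 0 in the late against early comparison, and at an unadjusted p under 0.05 there were 2 higher and 4 lower. Genes nearest to a distal region with an AP1 match were called higher in 8.70% (48 of 552), and those nearest to distal regions without one in 8.63% (74 of 857).

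None of the 10 genes nearest to the most P3–P7 regions was called late against early. Foxp1, a forkhead repressor with a role in heart development, was nearest to 9 regions, 3 of them promoters of its transcripts. Its levels were 15.8 and 8.96 FPKM at E18.5, 12.0 and 14.4 at P1, then 12.2 and 13.4 (P3) and 16.8 and 14.5 (P7). Early and late libraries overlapped, and the log2 fold change was 0.16 (SE 0.17, limma adjusted p 0.456). Ltbp1, which holds latent TGF beta in the matrix, was nearest to 6 regions with P3 values up to 10.1 and had a log2 fold change of −0.02 (SE 0.12). Kalrn, an exchange factor of small GTPases, the noncoding RNA Pvt1 and 2610035D17Rik also had 6 each. Among genes with 5, Prkag2, a subunit of the energy sensor AMPK, had a log2 fold change of −0.98 (SE 0.13, limma adjusted p 0.000564), just under the fold limit. Its levels were 23.0 and 25.3 FPKM at E18.5, 30.1 and 41.9 at P1, then 20.7 and 19.8 (P3) and 11.2 and 9.08 (P7). Rxra, Pdzd2, Dst and Frmd4a, each with 5 regions, had log2 fold changes of 0.43, −0.83, 0.12 and 0.52, none of them called.

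Of the promoter genes called higher, 146 (70.9%) had all late above all early libraries, beside 68.4% of all genes called higher, and 7 of the 8 largest rises are given here. Ccn5, a secreted matrix-associated signalling protein, rose from 0.0827 and 0.153 FPKM at E18.5 to 2.69 and 1.32 at P1, then 10.2 and 11.1 (P3) and 97.7 and 135.0 (P7). The log2 fold change late against early was 4.34 (SE 0.17, limma adjusted p 1.70e-05). Its promoter region lay 37 bp from the start (chr2:163820628-163821021) with a strength of 7.14, 6.97, 4.88 and 4.68. Ccn5 was called higher from E18.5 to P1 and again from P3 to P7, with log2 fold changes of 1.39 and 3.31, and the step from P1 to P3 (1.99) was not called.

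Hsd11b1, which regenerates active glucocorticoid, went from 0.169 and 1.73 FPKM at E18.5 to 16.2 and 8.60 at P1, then 30.9 and 29.6 (P3) and 52.9 and 64.1 (P7). Its log2 fold change was 3.17 (SE 0.28, limma adjusted p 0.000118), and its promoter region, which lay nearer to a start of Gm38118, carried 10.4, 11.2, 7.93 and 5.35. Aldh1a2, which makes retinoic acid, rose from 5.71 and 7.65 FPKM at E18.5 to 17.4 and 28.1 at P1, then 30.7 and 36.8 (P3) and 148.0 and 200.1 (P7). These enzymes make small hormone-like molecules, and both had been called higher by P1 already.

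Among secreted factors and receptors, Frzb, a secreted Wnt inhibitor, went from 0.955 and 1.01 to 4.44 and 3.41, 13.5 and 12.3, and 27.9 and 43.6 FPKM. Pdgfrb, the PDGF receptor of pericytes and fibroblasts, went from 4.92 and 3.15 to 19.8 and 12.6, 36.9 and 48.1, and 65.3 and 81.9 FPKM. The log2 fold changes of Frzb and Pdgfrb were 2.84 and 2.63, and in both the late libraries lay above the early ones. Tubb3 and Ptprn, known best from neurons and endocrine cells, rose mostly between E18.5 and P1. Tubb3 stood at 1.24 and 0.853 FPKM at E18.5, 23.4 and 18.4 at P1, then 44.3 and 42.8 (P3) and 41.1 and 42.6 (P7). Ptprn went from 0.807 and 0.376 FPKM to 16.9 and 17.5, 22.1 and 34.6, and 29.6 and 33.0.

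**Figure D5:**
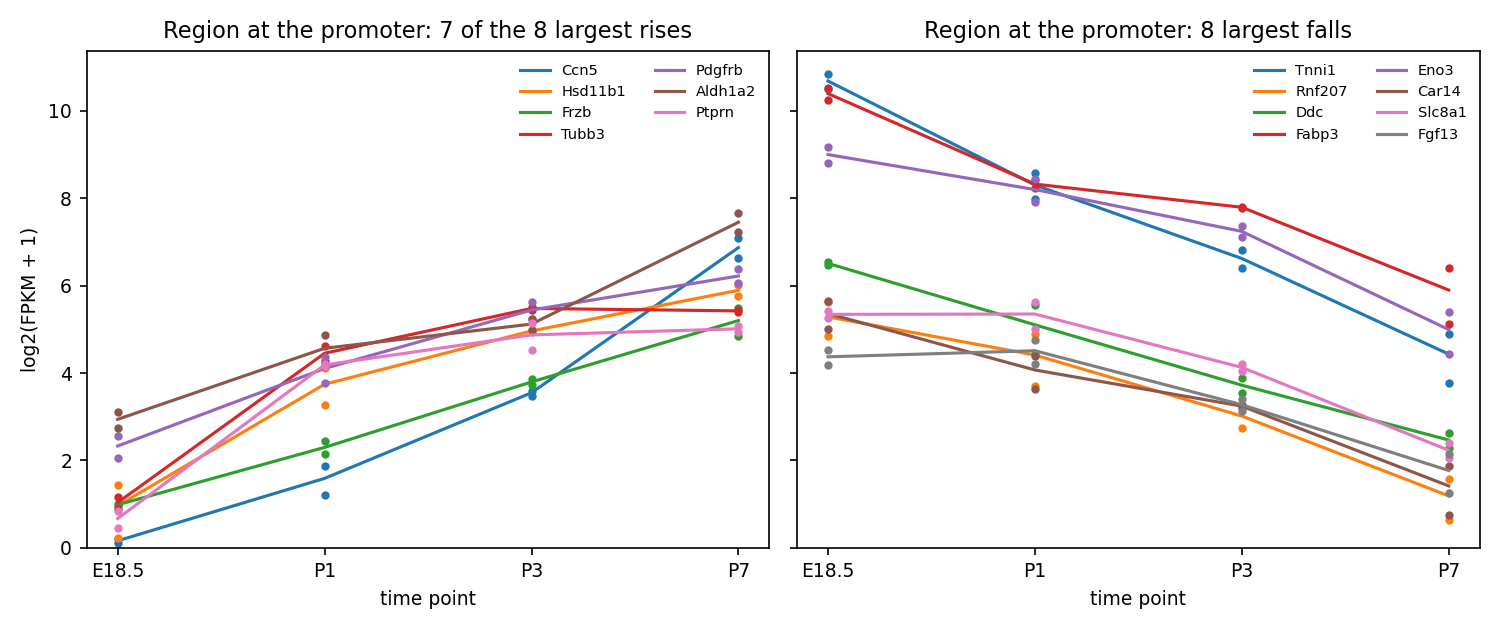
Level of 7 of the 8 genes with the largest rise (left) and the 8 with the largest fall (right) among genes with a P3–P7 region at the promoter, as log2(FPKM + 1) at E18.5, P1, P3 and P7. Points are the 2 libraries of a time point and lines join their means; Ccn5 climbs from 0.0827 and 0.153 FPKM to 97.7 and 135.0, and Tnni1 drops from 1456 and 1832 to 28.5 and 12.7.

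P3–P7 regions were also found at promoters of genes that were lower late, several of them genes of heart muscle. Of the 66 promoter genes called lower, 52 (78.8%) had all late below all early libraries, beside 72.3% of all genes called lower. Tnni1, the fetal form of troponin I, fell from 1456 and 1832 FPKM at E18.5 to 251 and 379.5 at P1, then 111 and 83.9 (P3) and 28.5 and 12.7 (P7). Its log2 fold change was −4.01 (SE 0.25, limma adjusted p 3.89e-05), although its region 1665 bp from the start had a strength of 5.40, 6.47, 3.79 and 4.07. Fabp3, the fatty acid binding protein of the heart, fell from 1217 and 1474 FPKM to 300.0 and 339, 223 and 219, and 83.8 and 33.7. The muscle enolase Eno3 fell from 450.5 and 572 FPKM to 242 and 344, 163 and 138, and 41.1 and 20.7.

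Slc8a1, the sodium-calcium exchanger, overlapped between E18.5 (37.2 and 42.1 FPKM) and P1 (31.1 and 48.5) and stood at 15.5 and 17.5 at P3 and 4.25 and 3.14 at P7. Fgf13, which modulates sodium channels, stood at 17.3 and 22 FPKM at E18.5, 17.6 and 26 at P1, then 9.61 and 7.74 (P3) and 3.44 and 1.39 (P7). For both, the change from E18.5 to P1 was not called and that from P3 to P7 was, at log2 fold changes of −1.90 and −1.57. Rnf207, Ddc and Car14 completed the group with log2 fold changes of −2.71, −2.67 and −2.40. The promoter regions of Eno3 lay nearer to starts of Pfn1 and Gm12319, and 1 of the 2 of Fabp3 nearer to Gm10570. The library kit named in the methods does not mark strand, so reads of overlapping genes cannot be told apart.

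Of 18 genes that the study names beside a mouse measurement, 6 were the nearest gene of a P3–P7 region, as were 21.5% of all tested genes. The promoter of Dcn, a proteoglycan gene and fibroblast marker, carried 6.98, 6.96, 4.32 and 3.37, and Dcn rose with a log2 fold change of 1.56 (SE 0.07, limma adjusted p 1.70e-05). The study describes this promoter as not accessible in cardiomyocytes, and Dcn as a gene they do not express. Csf1, the macrophage growth factor, rose from 45.3 and 27.5 FPKM at E18.5 to 205 and 138 at P1, then 226 and 253 (P3) and 251 and 238 (P7). Its nearest region, 10833 bp away, was weak and steady (2.19, 2.20, 2.47 and 2.33). Timp3, an inhibitor of matrix proteases, had a strong region 35391 bp upstream, in an intron of another gene (10.8, 7.40, 6.30 and 4.57). The log2 fold change of Timp3 was 0.55 and was not called. Timp3 was called higher at P1 against E18.5 (log2 fold change 1.56, SE 0.14, limma adjusted p 0.000163). Adamts1, a matrix protease, was lower at P1 than at E18.5 (log2 fold change −1.33, SE 0.12, limma adjusted p 0.000211). It stood at 44.7 and 44.1 FPKM at E18.5, a mean of 17.1 at P1, then 25.4 and 28.1 (P3) and 27.2 and 28.7 (P7). All P3 and P7 libraries of Adamts1 thus lay below both E18.5 libraries and above both P1 libraries. Its log2 fold change late against early was −0.02 (SE 0.09), a comparison that joins the high E18.5 with the low P1 libraries. The study describes a different pattern for an element that contacts Adamts1, which lost its accessibility after birth. How that element lies to the region here was not tested. Gstm1, a glutathione transferase, had a promoter region 276 bp from its start that held an AP1 match. Its log2 fold change of 0.86 (SE 0.14, limma adjusted p 0.00185) stayed under the fold limit and was not called. This comparison joins P1 with E18.5. The study compared each age with E18.5 alone and reports Gstm1 as higher at P3 and at P7, beside a distal element of rising accessibility. All late libraries of Gstm1 lay above all early ones. Pecam1, an endothelial adhesion molecule, had a log2 fold change of 0.20 (SE 0.18, limma adjusted p 0.398), and its early and late libraries overlapped.

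Promoters of cell type markers took part unequally, and the rule itself bears on this. A region with a peak at E18.5 or P1 was not taken, so a promoter region already open then could not count. The study describes accessible regions at cardiomyocyte marker loci such as Tnnt2 as constitutive. Of all tested genes, 12.7% had a P3–P7 region at the promoter, while 0 of 16 cardiomyocyte genes did and 5 of 12 fibroblast genes did (Dcn, Col3a1, Tcf21, Ddr2 and Mmp2). All 5 of these were called higher late against early, as were 10 of the 12 fibroblast genes, while all 16 cardiomyocyte genes were called lower. Tcf21, a transcription factor of cardiac fibroblasts, went from 7.28 and 9.33 FPKM at E18.5 to 45.4 and 54.1 at P1, then 60.0 and 37.4 (P3) and 70.1 and 59.8 (P7). The collagen gene Col3a1 stayed between 84.0 and 128.0 FPKM until P3 and reached 523 and 755 at P7. Of 10 smooth muscle and pericyte genes, 3 had a promoter region (Tagln, Pdgfrb and Kcnj8), and 4 of the 10 were called higher and 1 lower. Epicardial genes had 3 of 8 (Upk1b, Tbx18 and Aldh1a2), with 2 called higher. Endothelial genes had 1 of 12 (Eng), with 2 called lower. Macrophage genes had 1 of 10 (Cd68), with 1 of the 8 tested called higher. Of the 8 erythroid genes, 5 were called lower.

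Of 24 extracellular matrix genes, 4 (16.7%) had a region at the promoter (Col8a1, Thbs1, Thbs2 and Vcan), and 8 more were nearest to a distal one. Of all tested genes, 12.7% had a region at the promoter and 10.1% a distal one only. In the whole list 18 genes were called higher, with a median log2 fold change of 1.35 beside 0.09 for all genes. Lox, the enzyme that crosslinks collagen, went from 5.29 and 5.30 FPKM at E18.5 to 47.3 and 36.6 at P1, then 57.2 and 54.5 (P3) and 126 and 163 (P7). Eln, which makes elastin, went from 97.0 and 158 FPKM at E18.5 to 10.3 and 7.80 at P1, then 32.7 and 22.5 (P3) and 92.4 and 133 (P7). A region 16241 bp upstream of Eln, in an intron of another gene, carried 8.04, 8.06, 6.83 and 3.95. The sums of the fibroblast markers moved over the same libraries as these matrix genes, and their part was not tested.

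Among the 10 genes of AP1 and related factors, 3 were called lower late against early (Fos, Fosb and Atf3) and 0 higher by limma, with 3 higher and 5 lower at an unadjusted p under 0.05. Fos stood at 160.3 and 182 FPKM at E18.5 and between 4.81 and 10.4 in the 6 later libraries, and 2 distal P3–P7 regions were nearest to it. Its call rested on the E18.5 libraries, since the log2 fold change was 0.01 without them. Fosl1 had a P3–P7 region with an AP1 match 818 bp from its start, and its log2 fold change of 0.73 was not called (SE 0.27, limma adjusted p 0.0552). Its levels were 14.9 and 8.82 FPKM at E18.5, 22.1 and 9.34 at P1, then 14.7 and 21.5 (P3) and 28.1 and 26 (P7).

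In the Hippo list of TEAD and YAP genes, 2 of 12 had a promoter region (Tead3 and Axl) and 1 was called higher, Axl, a receptor tyrosine kinase, with a log2 fold change of 2.07. The TGF beta and BMP list had 4 of 16 (Smad3, Smad7, Bmp2 and Ltbp1), with 2 genes called higher. Smad3, the signal carrier of TGF beta, was nearest to 4 regions and had a log2 fold change of 0.31 that was not called. Of 15 inflammatory genes, 3 had one (Cxcl12, Ptgs2 and Nfkb1) and 8 were called higher, Cxcl12 among them. Of 16 integrin and focal adhesion genes, 1 had one (Ptk2), 7 more were nearest to a distal region (10.1% of all tested genes were), and 1 gene (Itgb5) was called higher, beside 5.75% of all tested genes.

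In the lists of heart muscle, calls were toward lower levels. Of 13 MEF2 and cardiac factor genes, 3 (23.1%) had a promoter region (Mef2c, Mef2d and Hand2), and 4 of the 12 tested were called lower. Mef2c was among those, with a log2 fold change of −1.03 (SE 0.13, limma adjusted p 0.000441), and levels of 4.12 and 4.16 FPKM at E18.5, 3.04 and 4.26 at P1, then 1.82 and 2.05 (P3) and 0.852 and 1.04 (P7). Of 15 fatty acid oxidation genes, 1 had one, Cpt1a, the entry enzyme of the pathway outside muscle, whose log2 fold change of 0.78 was not called, while 10 genes of the list were called lower.

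Of 15 cell cycle genes, 1 had a promoter region (Ccnd1), and 0 were called late against early by limma in either direction, with 10 higher at an unadjusted p under 0.05.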

How the data were processed

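The samples were cardiomyocytes of mice at E18.5, P1, P3 and P7, with 2 ATAC-seq and 2 RNA-seq libraries each; 6 HiChIP and 6 rat libraries were not used here. The authors trimmed the ATAC-seq reads with cutadapt, aligned them to mm10 with Bowtie2, removed duplicates with Picard and called peaks per library with MACS2. The deposited peak lists give the authors' score, fold enrichment ratio, −log10 p and −log10 q, and no read depth. The authors aligned RNA-seq reads with HISAT2 2.1.0 and ran StringTie 1.3.5 on GENCODE vM21, and the deposited files give FPKM and TPM per transcript; FPKM was summed per gene.

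Peaks were merged with bedtools 2.31.1. Sequences came from GRCm38.p6. The value log2(FPKM + 1), which understates the change of low genes, was fitted with limma 3.58.1 (moderated two-sided tests with a mean-variance trend, Benjamini-Hochberg adjustment) over all 8 libraries, for the 13979 genes that reached an FPKM of 1 in 2 or more libraries. All 6265 nearest genes were found in GENCODE vM21, and 3005 were tested. Scripts were tested on simulated data. Labels do not tie libraries to animals, so p-values measure the spread between libraries.

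The members, lists and tests were chosen with earlier results of these data known. Named were the 10 strongest members, the 10 genes nearest to most members, the 8 largest called rises and falls without overlap among promoter genes, genes of 16 lists, and genes the study names. Results on some items are not reported here. Alternatives were other peak and promoter rules, motif windows, pseudocounts, filters, units, scaling, a replicate block, and libraries left out.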

Additional observations from a re-analysis of the deposited data

How the results depend on the processing

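The number of regions depended most on the lists. It was 466 with lists of equal length, 3134 with the stronger 50% of each list, 13603 with P1 left free, and 7691 to 17790 without 1 ATAC-seq library (12382 without P1 replicate 1 and 17790 without P7 replicate 2). In the same order the median fold enrichment at P3 (6.72 for the mean of both libraries) was 10.5, 8.51, 7.24 and 6.23 to 7.15, and at P7 it was 6.63 with equal lists and 5.59 in the stronger 50%. The share of regions lower at P7 was 97.8% by fold enrichment and 85.3% by percentile within each list, which depends on list length. The promoter share was 24.7%, 40.2%, 32.0% and 27.5 to 38.1%, and it was 25.8% within 1 kb, 44.1% within 5 kb and 17.4% from expressed starts. The AP1 share was 48.7%, 31.2%, 31.8% and 28.1 to 31.8%, with 19.9% in 200 bp and 31.2% around the summit. The cause of these shifts was not tested beyond the way each list was built.

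Late against early, the 804 higher and 769 lower genes became 1290 higher with TPM, 1248 and 1254 with a pseudocount of 0.1, 221 and 395 without E18.5, and 437 lower without P7. Settings without E18.5 or P7 were chosen after seeing the data. For P1 against E18.5, TPM gave 2568 higher and a mean FPKM of at least 5 gave 412 lower. TPM moved the median of all genes by 0.138 late against early and by 0.237 for P1 against E18.5; 61.0% and 77.3% of the calls were then higher, beside 51.1% and 62.5%, and 50.7% of the P1 calls with size factors. For P3 against P1 the 2 higher genes became 0 with TPM, 0 with no filter, 1 with a mean of at least 5, and 0 to 18 without 1 library; the 0 lower became 0 to 17, and both extremes were reached without P1 replicate 1. For P7 against P3 the 189 higher became 117 with a mean of at least 5 and 13 with no filter, and 18 to 207 without 1 library; the 307 lower became 2 with no filter and 4 to 335 without 1 library. Leaving out either P3 library or P7 replicate 2 gave at most 44 higher and 62 lower.

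Genes with a region at the promoter were called higher late in 18.6% with equal lists, 3.44% without E18.5 and 7.49% with no filter, and lower in 0% with equal lists, 2.14% without P7, 2.39% with no filter and 7.17% with a pseudocount of 0.1. Genes with a distal region alone were called higher in 2.20% without E18.5, 13.7% with TPM, 4.63% with no filter and 14.0% with a pseudocount of 0.1, and lower in 2.65% with equal lists, 2.76% with no filter and 8.45% with a pseudocount of 0.1. For P1 against E18.5 the promoter genes gave 28.3% with TPM and 10.7% with no filter, and the distal genes 24.3% and 8.20%.

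Same-numbered libraries did not deviate together in every pair (correlations of −0.096 to 0.171), so the numbers were not taken as pairs. With the replicate block 807 genes were higher and 772 lower late against early, 0 were called for P3 against P1, and 184 and 263 for P7 against P3. Of 1523 values of 96 named genes, 1440 kept their call and direction, 36 lost it, 45 gained it and 2 turned, Thbs1 (−0.03) and Fos (0.01), both without E18.5. With 2 libraries a time point and no read depth in the peak lists, weak regions missed at E18.5 and P1 could not be counted.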
